A study of Mus musculus with 6 samples.

Results

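The Slit, netrin and semaphorin axon guidance genes are a list of 45 cues, receptors and adhesion molecules, chosen by name among the 55487 genes of the count table, with ephrins and their receptors left out. All 45 were found by symbol, each as 1 Ensembl gene, and all 45 passed the filter on low counts that kept 17275 genes for testing. Retinas of C57BL/6 mouse embryos at embryonic day 16.5 were profiled by bulk RNA sequencing, each library being the left and right retinas of 1 animal, and all 6 animals came from 1 litter. The 3 libraries labelled control carry the genotype Foxp1 fl/fl, and the 3 labelled Foxp1 cKO carry Foxp1 fl/fl with Six3-Cre, so that loxP-flanked Foxp1 alleles are shared by both groups and the Cre sets them apart. Six3-Cre is active in the developing retina, which confines the intended deletion to the cells that have expressed it. Labelled sexes were female, female and male in the controls 1 to 3 and female, male and male in the cKO 1 to 3. Foxp1 encodes a transcription factor of the forkhead family, and the comparison asks which transcripts differ when it is deleted in the embryonic retina.

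Slits are secreted proteins that repel growing axons through Robo receptors. Netrins attract axons through Dcc and neogenin (Neo1) and repel them when Unc5 receptors take part, and semaphorins act through plexins, the secreted class with neuropilins as co-receptors. In the embryonic retina these systems keep ganglion cell axons in the optic fibre layer, lead them to the optic disc and hold growing neurites to the right layer.

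The labels were checked first, because every direction rests on them. Foxp1, the targeted gene, had 1213, 1019 and 1096 counts in the libraries labelled control 1 to 3 and 1850, 1816 and 1742 in those labelled cKO 1 to 3, so it was higher where a deletion is labelled. Gene-level counts keep reads of exons that are not deleted, and which exons are floxed is not stated in the sources used here. Xist had 13 counts in the library labelled control 2, a female by label, and 14143 in the one labelled cKO 2, a male by label, so these libraries go against their labelled sex. By Xist and the Y-linked Ddx3y, the libraries labelled control 1 to 3 had a female, a male and a male pattern, which are the sexes labelled for cKO 1 to 3, and those labelled cKO 1 to 3 had the sexes labelled for control 1 to 3. Sexes, Foxp1 and the sign of the authors' deposited table would thus all match labels exchanged between the groups as a whole. Whether they were exchanged cannot be told from these files. Every direction here is given between the labelled groups, and an exchange would turn each lower level into a higher one in the deleted retinas. Depth was even, at 23707761 to 25714620 counts per library. The tissue label was checked on its markers, with the progenitor gene Rax at a mean level of 553 CPM (counts scaled by library size) in the labelled controls, and the ganglion cell genes Gap43 and Pou4f2 at 427 and 90.9 CPM.

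Levels of the guidance genes covered a wide range. Per kb of summed exon length, the scale on which genes can be compared, the mean over the 6 libraries ran from 0.176 CPM per kb for Sema3d to 56.8 CPM per kb for Plxnb2. After Plxnb2, a receptor for class 4 semaphorins, came the contactin Cntn2 at 45.4, Plxnb1 at 34.2, the adhesion molecule L1cam at 30.9 and Sema4d, a ligand of Plxnb1, at 30.8 CPM per kb. The ranges over libraries of Plxnb1 (30.7 to 38.7 CPM per kb), L1cam (27.2 to 36.1) and Sema4d (28.5 to 33.3) overlapped, so the order among these neighbours is not beyond their spread. Among the cues with low levels were Slit3 at 0.461, Sema3c at 0.235 and Ntn1 at 1.35 CPM per kb, against 12.5 for Slit1 and 25.8 for Sema3f.

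**Figure D1:**
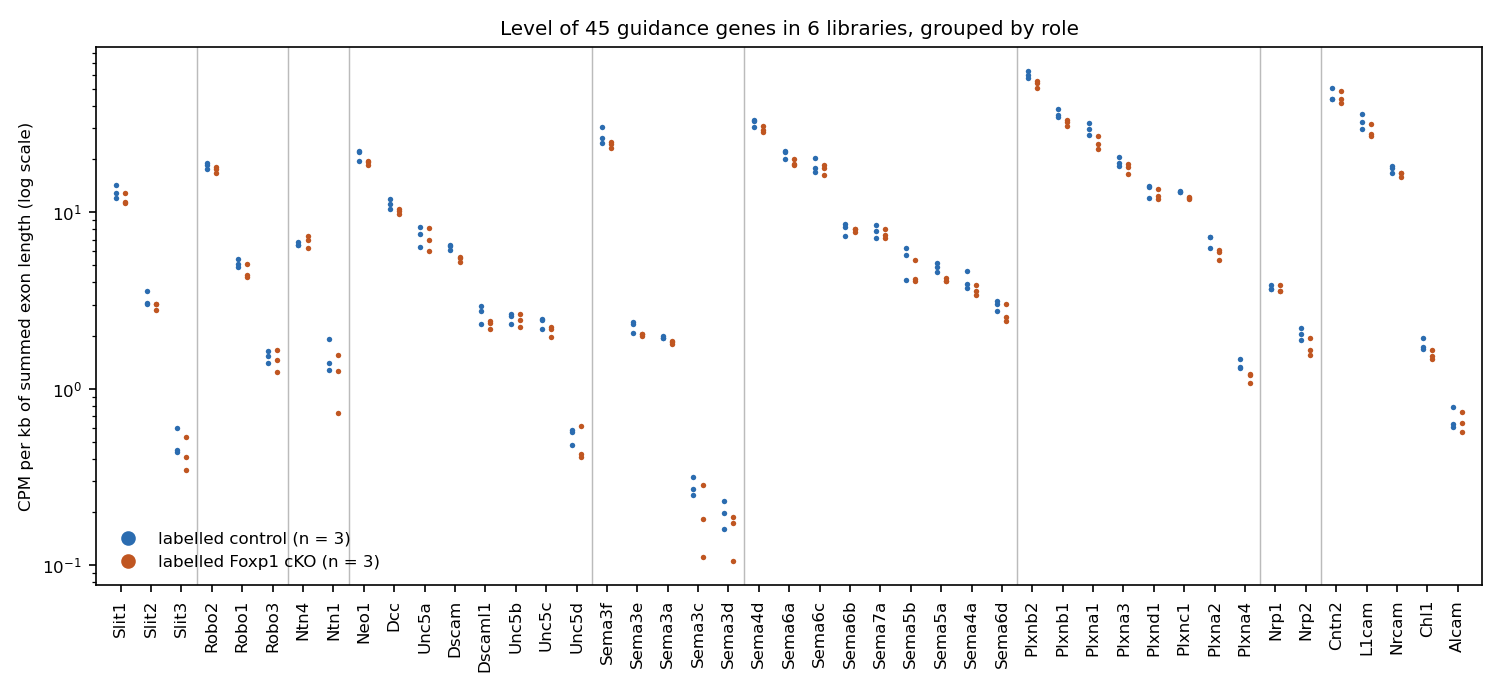
Level of each of the 45 guidance genes in CPM per kb of summed exon length (log axis), with 1 point per library, blue for the 3 labelled controls and orange for the 3 labelled cKO. Vertical lines part the roles, from Slit ligands at the left to adhesion molecules at the right, and Plxnb2 and Cntn2 stand at the top with Sema3d at the bottom.

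Between the labelled groups, 44 of the 45 genes had a fold change below 0, that is, a lower level in the libraries labelled cKO. The median log2 fold change was -0.15, against 0.00 over all tested genes, of which 49.9% were below 0. The differences were small, and 2 genes passed an edgeR adjusted p of 0.05, Sema5a and Dscam, both lower. Over all tested genes 0.781% passed in either direction, 0.486% lower and 0.295% higher. At an unadjusted p of 0.05, 23 of the 45 genes were lower and none higher, where 8.64% of all tested genes were lower. With DESeq2 in place of edgeR 7 of the 45 passed, all lower, where 3.28% of all tested genes passed. DESeq2 gave some genes no adjusted p, among them Ntn4, Plxna4, Nrp1 and Chl1. Such genes count as not passed among the 45 and among all tested genes. In 14 of the 45 every library labelled cKO was below every library labelled control, where 9.3% of all tested genes had that order, and 11 of these 14 also had an unadjusted p under 0.05, where 5.73% of all tested genes met both. Of the 14, 13 have a summed exon length of at least 8000 bases, and 25.8% of tested genes of that length had that order. Guidance genes share cells, libraries and length, so their counts are not independent of each other. The lower counts were spread over the roles, with all 3 Slits, all 3 Robos, 8 of 8 netrin receptors with the Dscam genes, all 14 semaphorins, 8 of 8 plexins, both neuropilins and all 5 adhesion molecules below 0. The netrins were split, with Ntn1 below 0 and Ntn4 above it. In bulk tissue, fewer cells of a type and less RNA per cell cannot be told apart.

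**Figure D2:**
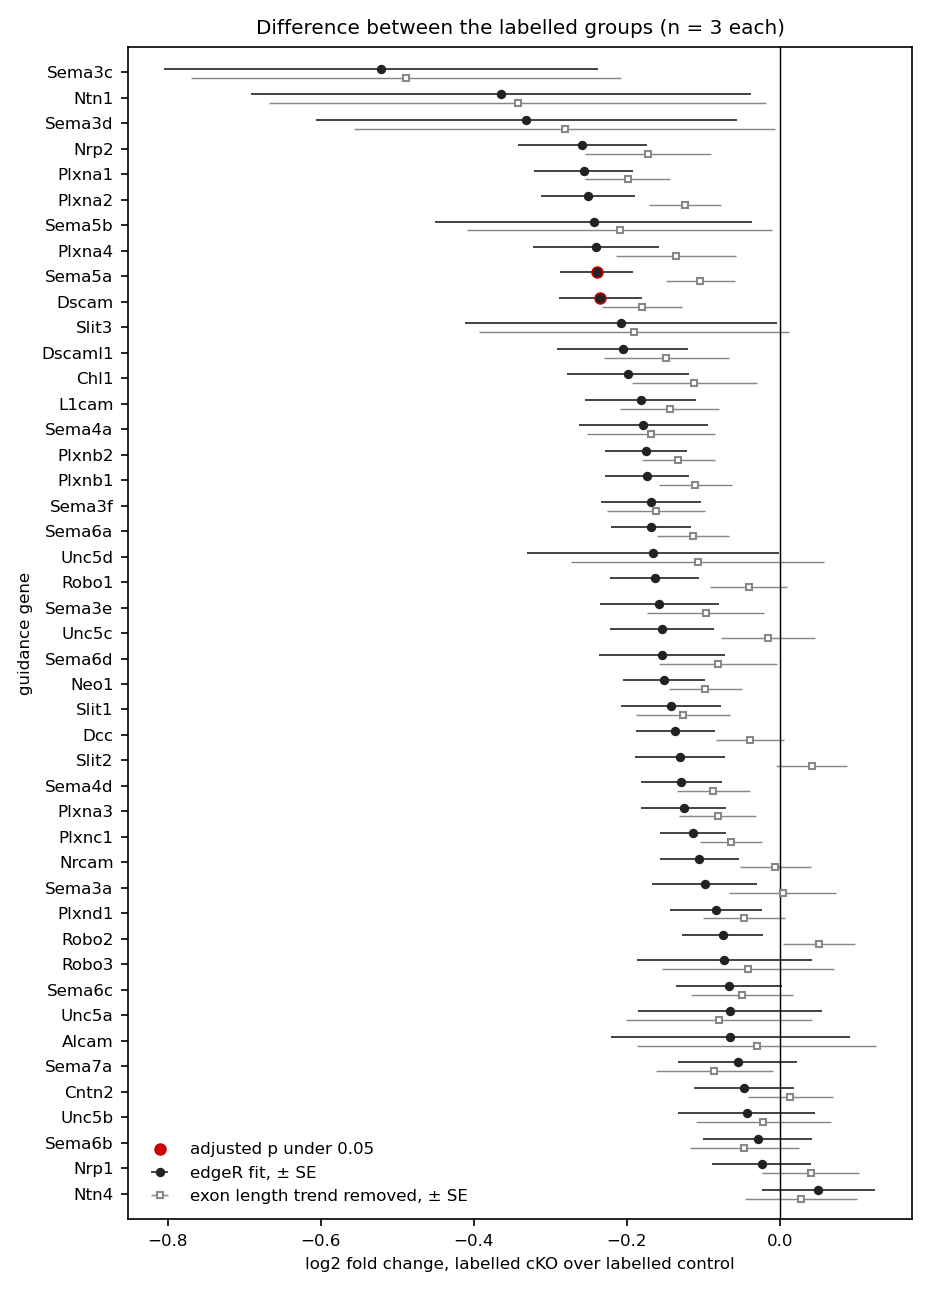
Log2 fold change of each of the 45 guidance genes, libraries labelled cKO over labelled control (n = 3 each), with bars of 1 standard error. Filled circles are the edgeR fit, open squares the fit with the exon length trend of each library removed, and red marks Sema5a and Dscam, which passed an adjusted p of 0.05 in the first and not in the second. Circles of 44 genes lie left of 0.

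Sema5a, a transmembrane semaphorin that keeps neurites of inner retinal neurons out of the outer retina, fell by 15.3% in the libraries labelled cKO. The gene (ENSMUSG00000022231, chromosome 15, 32244810 to 32696341, plus strand, mm10) had levels of 91.7, 95.9 and 86.2 CPM in controls 1 to 3 as labelled, and of 76.7, 76.1 and 79.1 CPM in cKO 1 to 3. All 3 cKO values lay below all 3 controls. This gave a log2 fold change of -0.24 (standard error 0.05, edgeR adjusted p 0.0293).

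Dscam, an immunoglobulin-family receptor that spaces the cell bodies and neurites of amacrine and ganglion cells and can bind netrin, fell by 15.02%. The gene (ENSMUSG00000050272, chromosome 16, 96590840 to 97170752, minus strand) had levels of 56.7, 57.5 and 54.1 CPM in controls 1 to 3 as labelled, and of 48.9, 45.9 and 48.2 CPM in cKO 1 to 3. Again the groups did not overlap. This gave a log2 fold change of -0.23 (standard error 0.05, edgeR adjusted p 0.0467). Dscam shares 1.98% and 1.12% of its exon bases with 2 genes of the opposite strand, and the sources used here do not state whether counting used the strand. Each of these calls was lost without the library labelled control 1 (adjusted p 0.0539 for Sema5a and 0.152 for Dscam), control 2 (0.144 and 0.174), cKO 2 (0.218 and 0.364) or cKO 3 (0.106 and 0.131), with log2 fold changes still between -0.20 and -0.25. Without the 2 libraries whose Xist goes against the labelled sex they were -0.19 for each gene, with an edgeR adjusted p of 0.714 (n = 2 each). None of the 45 genes passed by edgeR in that comparison, and 6 had an unadjusted p under 0.05, all lower, where 3.53% of all tested genes were lower at that p. Leaving these libraries out does not address an exchange of the whole groups.

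The sequence before the start of both called genes and of Plxnb2, the gene with the highest level per kb, is shown because these are the promoters of the members the results turn on. They come from RefSeq (GRCm38.p6), which held 48 start sites of 36 of the 45 genes, and are shortened to the bases under no annotated exon. Capitals mark the GC box GGGCGG on either strand, overlapping matches counted. Sema5a is chr15:32244663-32244809, plus strand, 147 bases with 5 matches. Dscam is chr16:97170753-97170985, minus strand, 233 bases with none. Plxnb2 is chr15:89180789-89181038, minus strand, 250 bases with 4. Another listed start of Plxnb2, with the window chr15:89173952-89174201 and 3 matches, is not shown.
Sema5a: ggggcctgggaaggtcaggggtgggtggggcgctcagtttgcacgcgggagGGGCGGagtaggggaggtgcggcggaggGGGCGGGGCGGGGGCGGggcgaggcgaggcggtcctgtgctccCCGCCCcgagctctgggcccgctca
Dscam: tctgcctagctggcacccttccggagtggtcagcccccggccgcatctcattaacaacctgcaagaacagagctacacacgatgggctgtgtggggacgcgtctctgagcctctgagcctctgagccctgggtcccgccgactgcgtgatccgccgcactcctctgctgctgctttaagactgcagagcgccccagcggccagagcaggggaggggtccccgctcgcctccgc
Plxnb2: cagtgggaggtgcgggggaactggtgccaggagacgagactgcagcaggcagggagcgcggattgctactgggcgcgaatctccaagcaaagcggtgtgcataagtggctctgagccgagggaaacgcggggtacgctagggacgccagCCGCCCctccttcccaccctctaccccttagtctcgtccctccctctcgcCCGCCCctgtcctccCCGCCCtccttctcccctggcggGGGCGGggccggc
Over the 250 bases before the start, 32 of the 48 sites of guidance genes held a GC box, which is 66.7% against 32.7% of all promoters in the table. The median GC content was 64.2% against 52.4%. The forkhead core TGTTTAC, searched on both strands, was found in 0 of the 48 and in 3.17% of all promoters. The looser form TGTTTNC, which takes in TGTTTAC, was found in 3 of the 48, before the starts of Sema3e and Sema4d, and in 17.8% of all. Both forms are mostly A and T, and neither count was adjusted for the higher GC content of the guidance gene windows. Whether the shares differ was not tested. Neither Sema5a nor Dscam has either form in these windows.

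Plexins, the receptors that pass semaphorin signals to the cytoskeleton, had the most members with groups that did not overlap, 6 of 8, where 9.3% of all tested genes and 25.8% of those of at least 8000 bases had that order. None passed by edgeR with adjustment over all genes, and 7 of 8 were lower at an unadjusted p under 0.05, where 8.64% of all tested genes and 28.6% of the long ones were. Plxna1, which with Plxna3 serves as a receptor for Sema5a and Sema5b in the retina, had levels of 289, 269 and 247 CPM in controls 1 to 3 as labelled, and of 245, 221 and 208 CPM in cKO 1 to 3. The lowest control and the highest cKO library were close to each other, and both groups covered a wide range. Its log2 fold change was -0.26 (standard error 0.06, edgeR adjusted p 0.0653), and 10.7% of its exon bases lie under a gene of the opposite strand. Plxna3 was at -0.13 (standard error 0.06, adjusted p 0.253), with overlapping groups.

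Plxna2, a receptor for Sema6a, had levels of 124, 124 and 108 CPM in controls 1 to 3 as labelled, and of 103, 91.8 and 105 CPM in cKO 1 to 3. The labelled control 3 lay nearer to the cKO libraries than to the other controls. Its log2 fold change was -0.25 (standard error 0.06, edgeR adjusted p 0.0653). Plxna4, which also binds Sema6a and marks a set of amacrine and ganglion cell neurites, was at 20.7, 18.7 and 18.5 CPM in the controls and 16.8, 15.2 and 17.0 CPM in the cKO libraries, a log2 fold change of -0.24 (standard error 0.08, adjusted p 0.137). Sema6a itself, a transmembrane ligand that sorts neurites into sublayers, was at 194, 192 and 177 CPM against 175, 162 and 164 CPM. Its groups were next to each other without overlap, at a log2 fold change of -0.17 (standard error 0.05, adjusted p 0.105).

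Plxnb2 had levels of 486, 464 and 446 CPM in controls 1 to 3 as labelled, and of 430, 417 and 390 CPM in cKO 1 to 3, with a log2 fold change of -0.17 (standard error 0.05, edgeR adjusted p 0.103). Plxnb1 was at 371, 340 and 333 CPM against 321, 295 and 310 CPM, with nearly the same log2 fold change of -0.17 (standard error 0.06, adjusted p 0.114). In neither did the groups overlap. Plxnc1, the receptor of Sema7a, was tight within its groups, at 111, 108 and 108 CPM against 99.9, 102 and 101 CPM, a log2 fold change of -0.11 (standard error 0.04, adjusted p 0.176). Plxnd1, the receptor of Sema3e in blood vessels, was at -0.08 with overlapping groups (standard error 0.06, adjusted p 0.536).

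**Figure D3:**
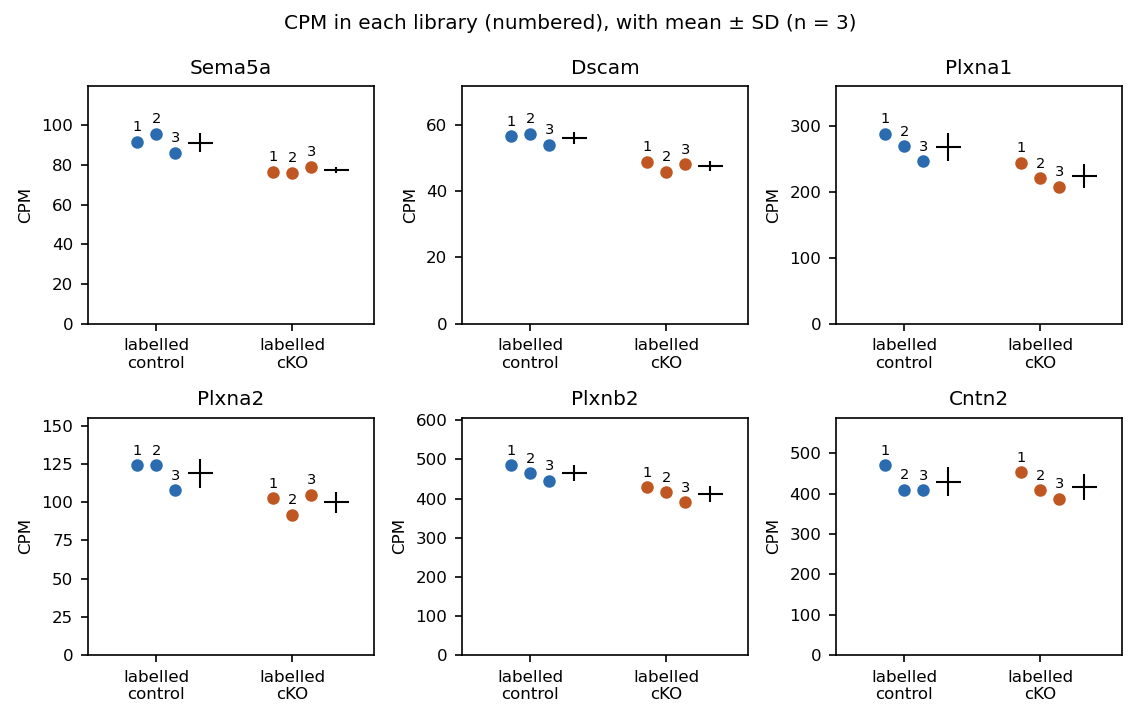
CPM of Sema5a, Dscam, Plxna1, Plxna2, Plxnb2 and Cntn2 in each library, numbered by its label, with the mean and SD of each labelled group (n = 3) as a black cross to its right; axes start at 0. The cKO points lie below all control points in the first 5 genes. For Cntn2 the labelled cKO 1 lies among the controls, and the labelled cKO 2 and cKO 3 lie below them, cKO 2 only just.

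The other semaphorins had log2 fold changes below 0 that did not pass. Sema4d, the membrane semaphorin with the highest level per kb, was at 256, 252 and 234 CPM in the labelled controls and 236, 224 and 219 CPM in the cKO libraries (log2 fold change -0.13, standard error 0.05, edgeR adjusted p 0.217), so the groups overlapped. Sema3f, the secreted semaphorin with the highest level per kb and a ligand of Nrp2, was at 159, 129 and 137 CPM against 128, 121 and 130 CPM, with overlap through the labelled control 2 (log2 fold change -0.17, standard error 0.06, adjusted p 0.207). Sema3a and Sema3e, which signal through Nrp1 and through Plxnd1, had no overlap between groups at log2 fold changes of -0.10 and -0.16 (adjusted p 0.518 and 0.316). Sema3c and Sema3d had the widest errors of the secreted class, with log2 fold changes of -0.52 and -0.33 and standard errors of 0.28 for each, at mean levels of 1.98 and 1.68 CPM in the labelled controls.

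Of the remaining membrane semaphorins, Sema5b, the partner of Sema5a in the same retinal role, was at 44.5, 40.5 and 29.3 CPM in the labelled controls and at 38.0, 28.9 and 29.7 CPM in the cKO libraries. Its fold change was about as large as that of Sema5a (-0.24) but its standard error was 0.21, and the labelled control 3 lay among the cKO values. Sema4a, Sema6b, Sema6c, Sema6d and Sema7a had overlapping groups, with log2 fold changes from -0.18 for Sema4a to -0.03 for Sema6b. Nrp1, the co-receptor for Sema3a, was at 37.7, 36.1 and 36.0 CPM against 37.9, 35.0 and 34.9 CPM, so the groups overlapped (log2 fold change -0.02, standard error 0.07, edgeR adjusted p 0.907). Nrp2, the co-receptor for Sema3f, was at 24.3, 26.3 and 22.4 CPM against 19.7, 18.5 and 22.8 CPM. Its log2 fold change was -0.26 (standard error 0.08, adjusted p 0.126), with the labelled cKO 3 above the labelled control 3.

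No Slit ligand or Robo receptor passed the threshold. Slit1 was at 85.1, 76.1 and 71.5 CPM in the labelled controls and 76.3, 66.7 and 67.7 CPM in the cKO libraries, with overlap (log2 fold change -0.14, standard error 0.07, edgeR adjusted p 0.293). Slit2, which with Slit1 is the main repellent for ganglion cell axons, was at 90.7, 77.8 and 77.2 CPM against 77.1, 70.8 and 76.6 CPM. Its groups did not overlap, but the labelled control 3 and cKO 1 were almost equal (log2 fold change -0.13, standard error 0.06, adjusted p 0.278). Robo2, the main Slit receptor of ganglion cells, was at 324, 315 and 299 CPM against 308, 297 and 285 CPM, with overlap (-0.07, standard error 0.05, adjusted p 0.528). Robo1 was at -0.16 (standard error 0.06, adjusted p 0.162) and Robo3, known for its part in midline crossing, at -0.07 (standard error 0.11, adjusted p 0.818).

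Per kb, the netrins Ntn1 (1.35 CPM) and Ntn4 (6.74 CPM) had lower levels than the receptors Dcc (10.7 CPM) and Neo1 (20.2 CPM). Ntn1, the cue at the optic disc, was at 11.97, 8.74 and 8.01 CPM in the labelled controls and 9.74, 4.57 and 7.94 CPM in the cKO libraries, a wide scatter in both groups (log2 fold change -0.36, standard error 0.33, edgeR adjusted p 0.675). Ntn4, a netrin of basement membranes, was at 25.3, 24.5 and 24.5 CPM against 26.2, 27.3 and 23.5 CPM (log2 fold change 0.05, standard error 0.07, adjusted p 0.8002). Dcc, the attractive netrin receptor of ganglion cell axons, was at 157, 147 and 138 CPM against 138, 129 and 135 CPM, where the labelled control 3 and cKO 1 met (-0.14, standard error 0.05, adjusted p 0.178). Neo1, its paralogue, was at 195, 190 and 170 CPM against 171, 167 and 161 CPM, with overlap at the same pair of libraries (-0.15, standard error 0.05, adjusted p 0.153). The repulsive receptors Unc5a, Unc5b, Unc5c and Unc5d ranged from -0.17 for Unc5d to -0.04 for Unc5b and all overlapped. Dscaml1, the paralogue of Dscam, was at -0.21 (standard error 0.09, adjusted p 0.225), with groups that overlapped.

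Adhesion molecules on ganglion cell axons did not pass either. Cntn2, the second in level per kb, was at 471, 409 and 409 CPM in the labelled controls and 452, 409 and 387 CPM in the cKO libraries. The groups overlapped through the labelled cKO 1 (log2 fold change -0.05, standard error 0.07, edgeR adjusted p 0.792). Chl1 was at 21.1, 20.7 and 23.9 CPM against 20.5, 18.0 and 18.8 CPM without overlap (-0.20, standard error 0.08, adjusted p 0.208). L1cam and Nrcam were at -0.18 and -0.10 (standard errors 0.07 and 0.05, adjusted p 0.225 and 0.316), and Alcam at -0.06 (standard error 0.16, adjusted p 0.892).

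Guidance genes are long, and fold changes in these libraries varied with length. Their summed exon length had a median of 8716 bases, with a range from 3298 for Sema7a to 25433 for Slit2, against 3923 bases over all tested genes. Of the 45, 32 lay in the upper 2 of 10 equal groups of tested genes ordered by length. The group with the longest genes had a median log2 fold change of -0.09 over all its genes, and its 15 guidance genes had a median of -0.15. At a limit of 8000 bases, set after the values were seen, 76.3% of the 2680 longer tested genes were below 0 with a median of -0.08, and all 25 longer guidance genes were below 0 with a median of -0.16. Of the longer tested genes, 25.8% had groups that did not overlap in the lower direction, which 13 of the 25 guidance genes had. Of the shorter tested genes 6.26% had that order, which 1 of the 20 shorter guidance genes had. None of these 20 passed by edgeR with adjustment. At an unadjusted p under 0.05, 7 of the 20 were lower, against 4.98% of the shorter tested genes. Among the 14565 shorter tested genes 44.98% were below 0 with a median of 0.02, against 19 of 20 shorter guidance genes with a median of -0.13.

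With the exon length trend of each library removed by offsets, none of the 45 genes passed by edgeR, where 0.22% of all tested genes did. In that fit 39 of the 45 were below 0, with a median log2 fold change of -0.10 against 0.00 over all tested genes. At an unadjusted p of 0.05, 10 of the 45 were lower and none higher, where 6.15% of all tested genes were lower. Dscam went from -0.23 to -0.18 (edgeR adjusted p 0.134) and Plxna1 from -0.26 to -0.20 (adjusted p 0.128). Sema5a, whose summed exons span 18686 bases, went from -0.24 to -0.10 (adjusted p 0.333), and Plxna2 from -0.25 to -0.12 (adjusted p 0.253). Slit2 and Robo2 went to 0.04 and 0.05. What sets the length trend was not tested.

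**Figure D4:**
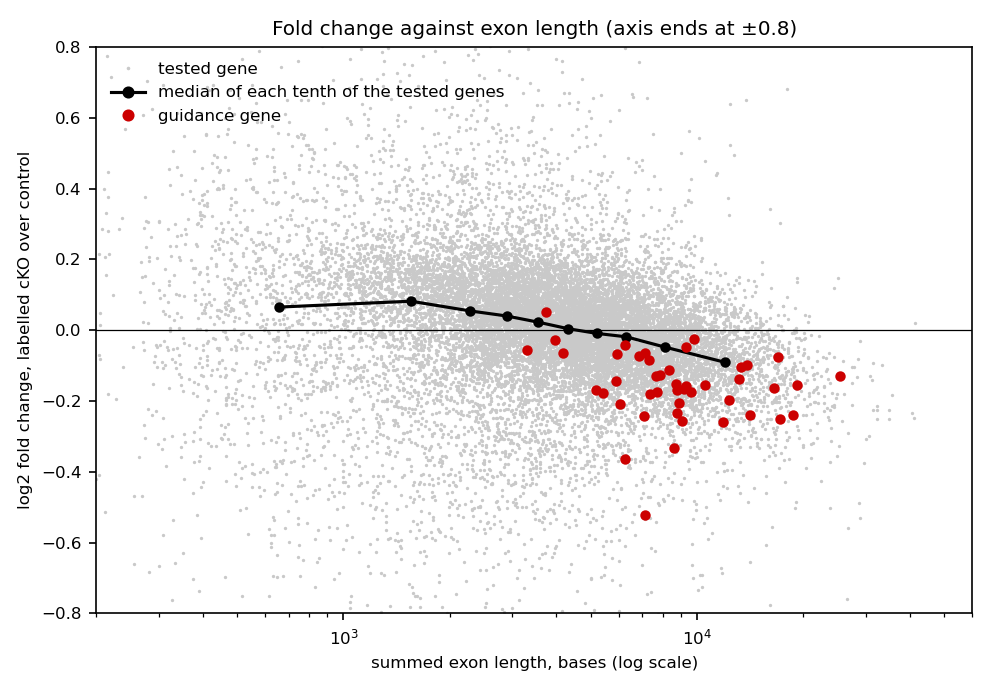
Log2 fold change, labelled cKO over control, against summed exon length in bases (log axis) for tested genes (grey), the median of each of 10 equal groups of them by length (black) and the 45 guidance genes (red); the vertical axis ends at ±0.8. The black line goes from 0.07 at the short end to -0.09 at the long end, and most red points lie below it.

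The libraries were not evenly spread within their groups. The library labelled control 1 had the highest CPM of the 6 for 28 of the 45 genes, and the one labelled cKO 2 the lowest for 25. Over all tested genes, control 1 was highest for 22.3% and cKO 2 lowest for 19.7%. The median deviation of the 45 genes from their own means on the log2 scale was 0.15, 0.08 and -0.01 in the libraries labelled control 1 to 3 and -0.02, -0.14 and -0.09 in those labelled cKO 1 to 3. So the labelled control 3 and cKO 1 were nearly level, and the other 4 libraries lay farther apart. Tested genes of at least 8000 bases had the same order over a narrower range, at 0.07, 0.04, 0.00, -0.02, -0.05 and -0.05.

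**Figure D5:**
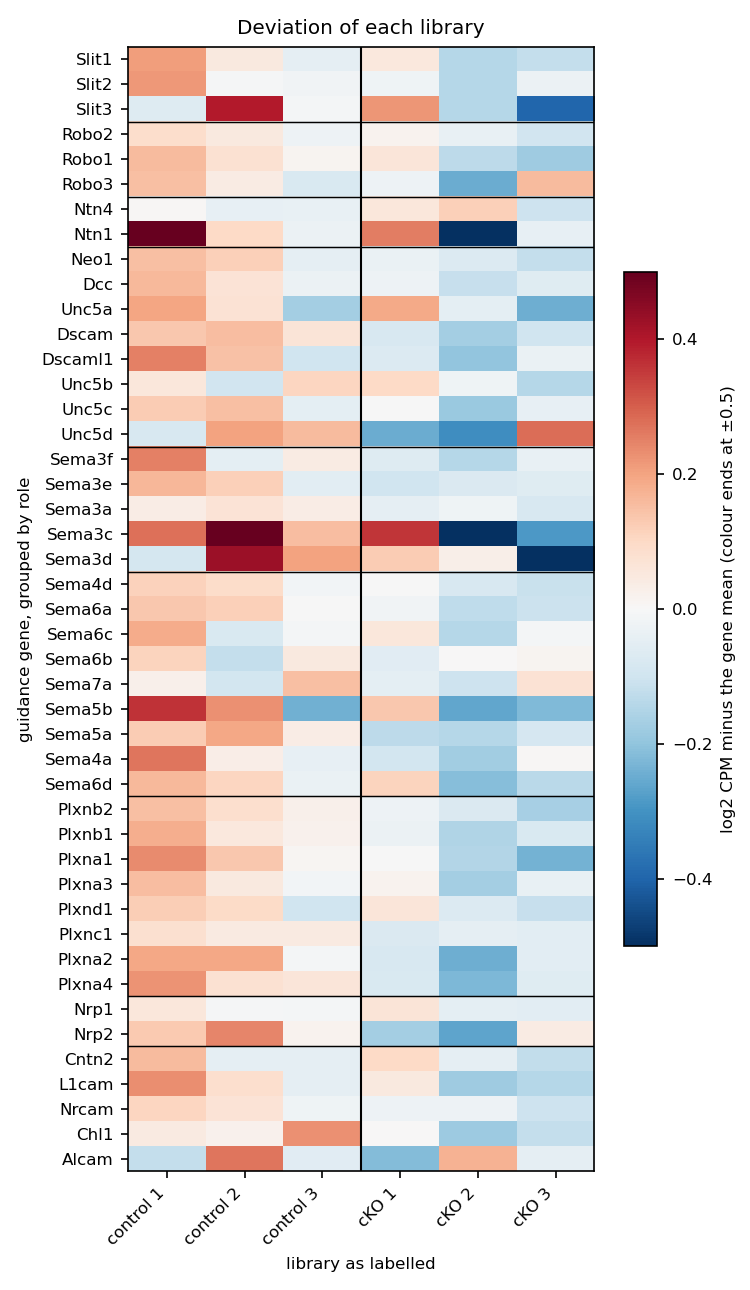
Log2 CPM of each guidance gene (rows, grouped by role) in each library (columns, as labelled) minus the mean of that gene over the 6 libraries; red is above the mean, blue below, and the colour scale ends at ±0.5. The labelled control 1 column is mostly red and the labelled cKO 2 column mostly blue.

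Markers of retinal and other cell types were compared in the same fit. Which of these cells express the guidance genes cannot be read from bulk libraries. The 10 ganglion cell markers had 4 members below 0 and 6 above, none past an adjusted p of 0.05, and their summed level was 2349 to 2440 CPM in the labelled controls and 2409 to 2589 CPM in the cKO libraries. The 8 progenitor markers summed to 7393 to 7553 and 7233 to 7523 CPM. All 6 amacrine and horizontal cell markers were below 0, Ptf1a only just (-0.002), with Tfap2b and Prox1 past the threshold. Over all tested genes 49.9% were below 0 and 0.781% passed. With the length trend removed neither passed (edgeR adjusted p 0.0529 for Tfap2b and 0.0538 for Prox1). The sums of the 6 did not overlap, at 483 to 512 CPM against 421 to 441 CPM. The 5 endothelial markers summed to 328 to 353 CPM against 297 to 306 CPM, nearly all of it Kdr, while Pecam1, Cdh5 and Tek each had a mean under 1 CPM in both groups. Microglia markers summed to 16.8 to 21.0 against 15.01 to 17.9 CPM and optic nerve glia markers to 14.7 to 16.1 against 6.36 to 14.8 CPM. Lens (56.2 to 872 against 15.8 to 236 CPM), mesenchyme (39.0 to 91.5 against 76.4 to 151 CPM), pigment epithelium (50.1 to 84.0 against 26.6 to 82.7 CPM), skeletal muscle (28.9 to 58.3 against 16.3 to 27.2 CPM) and photoreceptor precursor markers (638 to 669 against 613 to 657 CPM) completed the lists. The endothelial and skeletal muscle sums did not overlap either. The skeletal muscle sum was mostly Ttn, with 116825 exon bases, while Myh3, Actc1 and Myog had overlapping groups. All tested markers of lens (6), microglia (5) and pigment epithelium (4) were below 0 too, none past the threshold, and the remaining lists were mixed. Rpe65 was at 0 in all labelled controls. The part of these cells in the lower guidance genes was not tested.

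Among 66 other genes of the same pathways (further ligands and receptors, and the proteins that carry their signals to actin and microtubules), 63 were tested, 4 passed and all 4 were lower, where 0.781% of all tested genes passed in either direction and 0.486% lower. They included Ntng2, a membrane-anchored relative of the netrins (68.6 ± 1.30 against 58.1 ± 0.731 CPM, SD, n = 3 each, edgeR adjusted p 0.0293), Trim67, a ubiquitin ligase that binds Dcc (174 ± 10.4 against 146 ± 4.07 CPM, adjusted p 0.0315), and Mical3, of a family of oxidases that act on actin downstream of plexins (125 ± 7.75 against 107 ± 6.10 CPM, adjusted p 0.0468). The 63 genes had a median log2 fold change of -0.05, with 46 below 0. Next came Sema4g, Srgap2, Trio and Nfasc, at -0.19, -0.18, -0.22 and -0.21 (adjusted p 0.0692 to 0.0818). Ntng2, with 3990 exon bases, was the 1 gene of the 63 that passed with the length trend removed (log2 fold change -0.26, adjusted p 0.0157). None of the 4 calls held without the library labelled control 1, control 2, cKO 2 or cKO 3.

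The authors' deposited table of cKO against control lists all 45 genes, and each has the opposite sign to the fit of the counts by label. Of the 45, 44 are above 0 in the authors' deposited table, with a median log2 fold change of 0.18, and Ntn4 is at -0.01. There, 9 of the 45 have an adjusted p under 0.05, and 17 have no adjusted p. Of all 21080 genes listed there, 681 are under 0.05 and 13487 have no adjusted p. The 681 are 8.97% of the 7593 genes with an adjusted p. In the authors' deposited table these 9 are Plxna1 (log2 fold change 0.31, adjusted p 0.000102), Plxnb2 (0.21, 0.0011), Plxnb1, Sema5a, L1cam, Plxna2, Sema6a, Dscam and Neo1. Foxp1 is at -0.60 in the authors' deposited table, so relative to Foxp1 the guidance genes run the same way in both sources. In each, 44 of the 45 are lower where Foxp1 is higher, and Ntn4 runs the other way. Both sources come from the same study, so the 1 is no independent check of the other.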

How the data were processed

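The deposited count table holds raw reads per gene as whole numbers, per the file headers and the values. The submitters' processing notes name cutadapt 2.8, STAR 2.7.6a, mm10, featureCounts 1.5.1 and the package DESeq2 1.32.0. The sources used here do not state settings or strand use. Per the labels' protocols, ribosomal RNA was depleted and a directional kit was used. Columns of the authors' deposited comparison of cKO against control are a mean of normalized counts (signal), a log2 fold change, its error, the test score and a raw and adjusted p-value. Symbols came from that table, else from GENCODE M21, which gave positions and summed exon lengths.

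Genes were kept with edgeR's filterByExpr. The labelled groups were compared in edgeR 4.0.16 (R 4.3.3) by robust quasi-likelihood tests on TMM-normalized counts, with genotype as the sole term and Benjamini-Hochberg adjustment over 17275 genes, at 0.05. Standard errors were derived from each fold change and its F value. CPM use TMM-scaled library sizes. Pairs of libraries within a group differed well beyond sampling noise (chi-square over degrees of freedom 7.39 to 12.46), so none was a duplicate. Nothing in the labels names a separate litter or batch, so p-values measure the spread between animals of 1 litter. Scripts were tested on simulated data. The alternatives used other normalizations, filters and covariates, limma-voom (limma 3.58.1), DESeq2 1.42.0, length offsets (lowess, span 0.3) and left-out libraries. Members, lists and alternatives were chosen with earlier results of these data known. By rule, values in every library are given for members past the threshold, for those with an unadjusted p under 0.05 and no overlap, and for the highest per kb in each role, and other pathway genes are named when past the threshold or among the next 4. Per-library values of Nrp2, Dcc, Ntn1 and Sema5b, and the single fold changes of other members, were added after they were seen. Values of some genes on the lists are not reported here. The biological coefficient of variation was 8.4%.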

Additional observations from a re-analysis of the deposited data

How the results depend on the processing

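The median log2 fold change of the 45 guidance genes, -0.154 in the main fit, stayed below 0 under all 18 alternatives. It moved by less than 0.0726, the SD of the library medians within groups, which is a wide limit beside that median. It was -0.0969 with the length trend removed and -0.104 with labelled sex as a covariate. In each alternative 39 or more of the 45 were below 0. The number that passed depended on the settings, and the calls over all tested genes moved with it. The setting with labelled sex does not adjust for sex by Xist, which goes against the labels in control 2 and cKO 2. Of the 45, 1 passed with upper quartile normalization (0.538% of all tested genes), with a filter at 1 CPM (0.559%) and with labelled sex as a covariate (0.654%), 6 with no filter on low counts (2.47%) and 7 with DESeq2 (3.28%). None passed without robust estimation in edgeR (0.0579%), with limma-voom (0.0753%), with the length trend removed (0.22%) or without the libraries labelled control 2 and cKO 2 (0.0516%). In those 4 fits 19, 20, 10 and 6 of the 45 were lower at an unadjusted p under 0.05, where 8.43%, 8.34%, 6.15% and 3.53% of all tested genes were. Leaving out 1 library gave 0 to 9, with 0 without control 1, control 2, cKO 2 or cKO 3 (0.107% to 0.193% of all tested genes), 9 without control 3 (4.4%) and 4 without cKO 1 (2.04%). Where that gave 0 by edgeR, 11 to 17 of the 45 were lower at an unadjusted p under 0.05, against 5.03% to 7% of all tested genes. Of the other pathway genes, of which 4 had passed, 2 passed with the 1 CPM filter and with labelled sex, 8 with no filter, 9 with DESeq2, 1 with the length trend removed, 0 without robust estimation, with limma-voom and without control 2 and cKO 2 (17, 18 and 9 lower at an unadjusted p under 0.05), and 0 to 10 with 1 library left out.

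The replicate block gave 9 guidance genes and 15 other pathway genes, where 6.16% of all tested genes passed, and with the length trend removed as well it gave 2 and 6, where 2.76% passed. Same-numbered libraries correlated at 0.09, -0.05 and 0.20 in their deviations from group means, and differently numbered ones at -0.22 to 0.17. Not every library correlated best with its own number. Deviations within a group of 3 depend on each other, so whether the numbers pair the samples cannot be told from these values.

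Signs changed for members that did not pass. With labelled sex as a covariate, which is not the sex by Xist in control 2 and cKO 2, Nrp1 and Cntn2 were at 0.00050 and 0.00072. With the length trend removed Slit2 (from -0.13), Robo2, Nrp1 and Cntn2 were at 0.0418, 0.0511, 0.0409 and 0.0139, and with the replicate block as well at 0.0421, 0.0504, 0.0404 and 0.0137. Leaving out 1 library, Cntn2 ranged from -0.110 to 0.0254, and Ntn4 was at -0.0060 without control 2 and cKO 2. The cause was not tested.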
